A study of Mus musculus with 2 samples.

Results

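Open CpG-poor promoters are DNase I hypersensitive sites beside genes whose start sites carry few CpG dinucleotides. DNase-seq sequences the ends left where DNase I cuts accessible chromatin, and a peak is a stretch with many such cuts. A gene was taken as CpG-poor when its highest observed/expected CpG ratio, over the 500 bp either side of every start site of its GENCODE M21 basic transcripts, was below 0.25. Of 21938 protein-coding genes, 5441 met this limit. A peak was a member when it lay within 1000 bp of a start site of such a gene, within 1000 bp of no other coding gene, and overlapped a peak of the other replicate by at least 1 bp. There were 376 member peaks among the 115072 peaks of replicate 1 and 372 among the 95711 peaks of replicate 2. They belonged to 314 genes with a member peak in both replicates, which are called open below. The rule used the annotation, the mm10 sequence and the presence of a peak, and not the values of the peaks.

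The samples were hippocampal tissue of male B6CASTF1/J mice, the F1 hybrid of a C57BL/6 and a CAST/EiJ parent, aged 14 days. They form 1 group of 2 biological replicates, with no control or treated group. Each label mentions 3 males and gives the same donor identifier, and the tissue is called a layer of the hippocampus with no layer named. No test between groups was therefore possible, and intervals given below are exact 95% binomial intervals that cover counting error only. Without the CpG limit the rule called 30 of 30 pan-neuronal, 26 of 31 glutamatergic and pyramidal and 28 of 33 astrocyte genes open. It called 4 of 35 liver genes and 0 of 26 granulocyte and mast cell genes open, beside 51.9% of all coding genes. A peak within 1000 bp of a start site counted and need not have covered it. These lists differ in CpG content: 0 of the pan-neuronal, 22 of the liver and 22 of the granulocyte and mast cell genes were CpG-poor. In bulk tissue, fewer cells of a type with an open site and less open chromatin per cell cannot be told apart.

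CpG dinucleotides are depleted from most of the mouse genome because methylated cytosine mutates readily. CpG islands, which escape methylation, cover the start sites of most widely used genes. Genes with CpG-poor start sites include many tissue-specific ones, and their promoters rely more often on a TATA box, on factors particular to a cell type and on distant enhancers.

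Open chromatin was rare within 1000 bp of CpG-poor start sites. Of the CpG-poor genes, 314 of 5441 were open, 5.77% (interval 5.17% to 6.42%). Under the same rule 2561 of 5395 genes with a highest ratio between 0.25 and 0.6 were open, or 47.5%, as were 8518 of 11102 genes at 0.6 or above, or 76.7%. Over all coding genes the share was 51.9%. The rule leaves out peaks shared by neighbouring genes, so the shares for the CpG-richer classes miss promoters that serve a pair of coding genes.

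The open share was not uniform among CpG-poor genes. It was 1.68% (interval 0.547% to 3.87%) of 298 genes with a ratio under 0.05, 4.28% (3.32% to 5.42%) of 1519 genes between 0.1 and 0.15, and 10.7% (9.03% to 12.6%) of 1203 genes between 0.2 and 0.25. Just over the limit, between 0.25 and 0.3, 173 of 960 genes were open (interval 15.6% to 20.6%). Intervals of the lowest and highest of these bins did not overlap, and no step marked the limit of 0.25. The genes nearest to the limit had similar values on either side. Just inside it were Tnfsf13 (1.03 in replicate 1 and 0.962 in replicate 2), C1ra (1.05 and 1.46) and Gm1123 (0.552 and 0.611). Just outside it were Hacd4 (0.502 and 0.685), Cyp2j6 (0.856 and 0.856) and Kcnd1 (0.778 and 0.823).

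**Figure D1:**
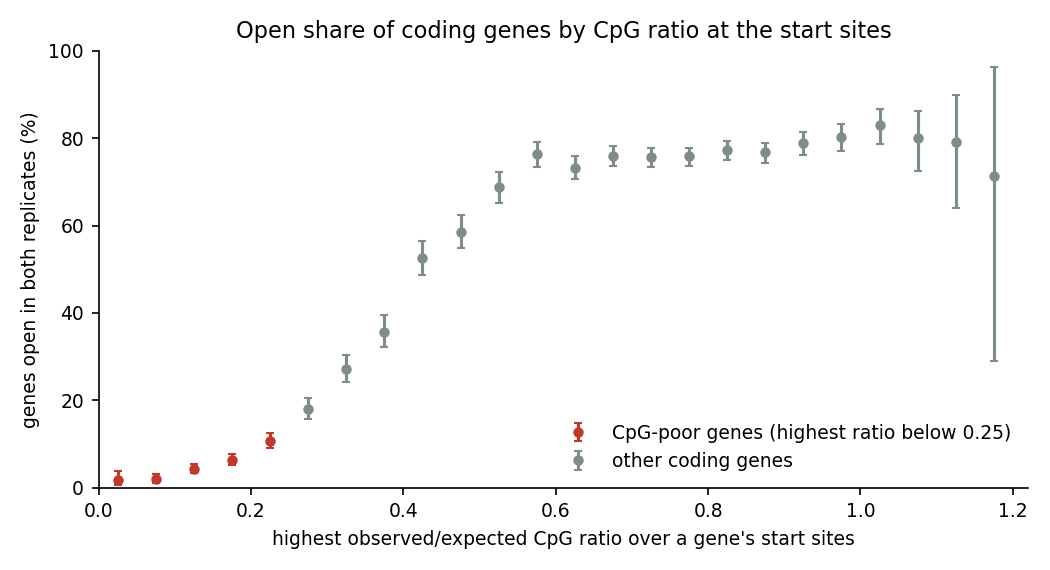
Share of coding genes open in both replicates (y axis, percent) against the highest observed/expected CpG ratio over the start sites of a gene (x axis, bins of 0.05); red points are CpG-poor genes, grey points other coding genes, and bars are exact 95% binomial intervals. The share climbs from 1.68% in the lowest bin to 10.7% in the highest CpG-poor bin and 76.4% at 0.55 to 0.6, and lies between 71.4% and 82.9% above.

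Sequences of 8 open CpG-poor promoters follow as examples. They were chosen by high value or by a motif before the start site and are not a typical sample. They are C57BL/6 reference sequence of the GRCm38.p6 RefSeq genome, all outside annotated exons. The first 4 are the middle 100 bp of the strongest peaks whose middle lay outside exons, which passes over Hcrt, the third highest. They are on the plus strand, and capitals mark bases that lay in a deposited footprint of both replicates. A footprint is a short stretch inside a peak where cuts are sparser than around it, the pattern left by a bound protein.

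Tmem270, chr5:134907291-134907390, plus strand: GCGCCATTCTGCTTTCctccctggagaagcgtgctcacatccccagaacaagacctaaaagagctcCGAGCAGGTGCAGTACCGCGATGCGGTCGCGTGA
Aanat, chr11:116592581-116592680, plus strand: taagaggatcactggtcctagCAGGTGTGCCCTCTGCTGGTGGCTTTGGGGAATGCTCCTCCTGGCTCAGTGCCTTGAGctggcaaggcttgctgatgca
Btbd17, chr11:114795291-114795390, plus strand: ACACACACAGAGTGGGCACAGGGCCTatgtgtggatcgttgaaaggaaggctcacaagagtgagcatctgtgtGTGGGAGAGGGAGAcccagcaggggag
Cyp4f13, chr17:32947431-32947530, plus strand: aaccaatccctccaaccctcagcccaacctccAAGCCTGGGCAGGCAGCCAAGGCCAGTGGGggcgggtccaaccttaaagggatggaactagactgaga

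In these 100 bp, footprints of both replicates took in 50 bases at Tmem270, 58 at Aanat, 40 at Btbd17 and 30 at Cyp4f13. At Aanat all 12 bases of a match to the CTCF motif, read on the minus strand, lay in footprints of both replicates. CTCF is a zinc finger protein that anchors chromatin loops and insulates domains.

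The other 4 are the 120 bp before a start site that a peak covered in both replicates, on the strand of the gene. Capitals mark a TATA box 20 to 40 bp before the start site, the element that positions the transcription machinery, or a CCAAT box (CCAAT, or ATTGG on the other strand) 40 to 120 bp before it, which binds the factor NF-Y.

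Adamtsl2 (TATA box), chr2:27079259-27079378, plus strand: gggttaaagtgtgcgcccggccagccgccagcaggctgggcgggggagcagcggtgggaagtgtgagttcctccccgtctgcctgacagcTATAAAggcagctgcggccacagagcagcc
Krt77 (TATA box), chr15:101869706-101869825, minus strand: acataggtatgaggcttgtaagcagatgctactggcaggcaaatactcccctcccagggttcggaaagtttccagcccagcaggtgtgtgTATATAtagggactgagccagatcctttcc
H2-Eb1 (CCAAT box), chr17:34305747-34305866, plus strand: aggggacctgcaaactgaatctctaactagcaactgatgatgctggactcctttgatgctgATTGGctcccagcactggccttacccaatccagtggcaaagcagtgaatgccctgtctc
H2-Aa (CCAAT box), chr17:34287824-34287943, minus strand: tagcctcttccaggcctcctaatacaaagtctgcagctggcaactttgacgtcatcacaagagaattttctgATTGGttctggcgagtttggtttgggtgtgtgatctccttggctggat

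The TATA box began 30 bp before the start site at both Adamtsl2 and Krt77. The inverted CCAAT box began 59 bp before it at H2-Eb1 and 48 bp before it at H2-Aa. These are the genes for a beta and an alpha chain of MHC class II molecules, which present peptides to T cells, and class II promoters are known to share such an inverted CCAAT box, called the Y box.

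The 4 genes with the highest values among open CpG-poor promoters were Tmem270, Aanat, Hcrt and Btbd17. The value is the signal of a peak deposited by the authors, and for a gene it is that of its highest member peak. Tmem270 had 5.13 in replicate 1 and 6.33 in replicate 2. Aanat, which encodes the enzyme that acetylates serotonin on the way to melatonin, had 4.82 and 5.79. Hcrt, the gene for the precursor of the orexin peptides, had 3.77 and 4.57. Btbd17 had 3.88 and 4.30. All 4 were higher in replicate 2, and each was above the median of other promoters in both replicates. Of all members, 2 in each replicate reached the top 10% of other promoters, which began at 4.44 in replicate 1 and 5.52 in replicate 2.

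Most of these peaks did not lie on the annotated start site. The Tmem270 peak, chr5:134907241-134907440, was 508 bp upstream of the nearest start site and between genes. The Aanat peak was 947 bp upstream of an inner start site and in an intron of the gene. The Hcrt peak lay 888 bp downstream of the start site in an exon, and the Btbd17 peak 397 bp downstream in an intron. The next genes were Cyp4f13, a cytochrome P450 (3.89 and 3.99, start site covered), the zinc finger gene Zscan2 (3.57 and 4.28), Spata20 (3.15 and 4.52) and Pcp4 (3.42 and 3.95). Pcp4 encodes a calmodulin-binding peptide that marks a set of hippocampal pyramidal neurons, and its peak covered the start site.

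The rest of the 20 highest held genes known from other organs. Upk2, a uroplakin of the bladder lining, had 3.01 and 3.45. The secretoglobin Scgb1c1 had 2.97 and 3.25. Pga5, a pepsinogen, had 2.51 and 2.53. Hsd3b7, an enzyme of bile acid synthesis, had 2.55 and 3.12. H2-Eb1 had 2.93 and 3.03, and Tap2, a subunit of the peptide transporter of antigen presentation, had 2.53 and 3.38. Lgi4, a secreted protein needed for myelination by Schwann cells, had 2.26 and 3.16, and the leukotriene B4 receptor gene Ltb4r2 had 2.33 and 2.45. The remaining 4 were 1500009C09Rik, 9230104L09Rik, Spocd1 and Sra1, with values between 2.10 and 2.80. Of these 20 highest peaks in replicate 1, 6 covered a start site, and 5 held a match to the CTCF motif in their middle 200 bp.

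**Figure D2:**
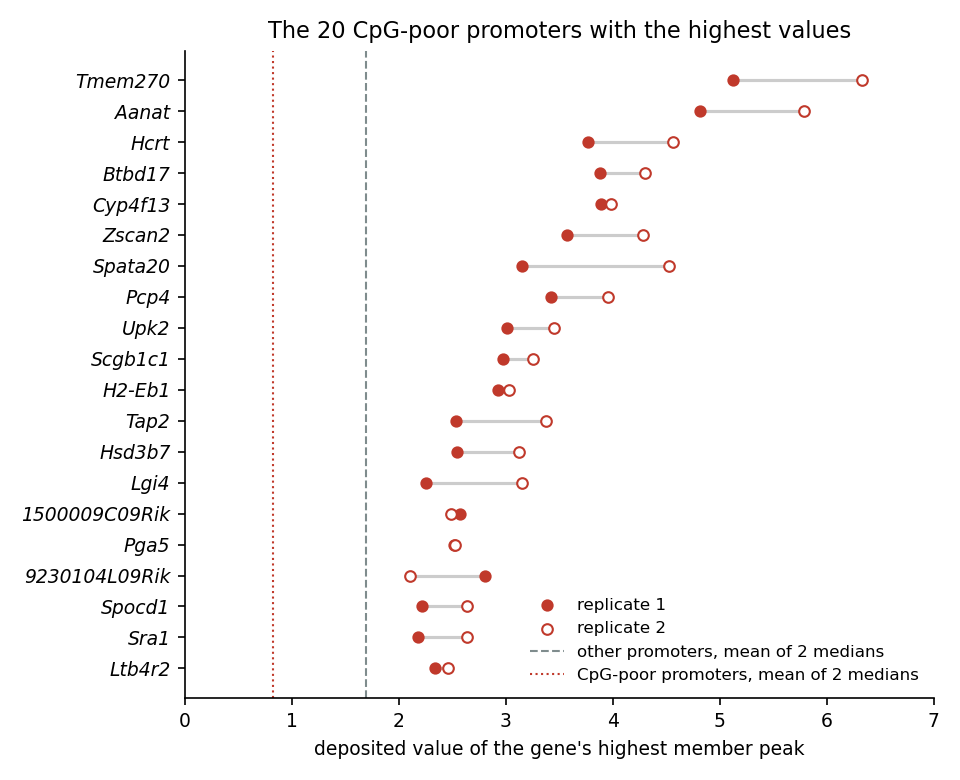
Deposited value of the highest member peak (x axis) of the 20 CpG-poor promoters with the highest mean; filled points are replicate 1 and open points replicate 2, the dotted line is the mean of the 2 medians of CpG-poor promoter peaks (0.825) and the dashed line that of other promoter peaks (1.69). All 20 genes lie to the right of both lines in both replicates.

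The lowest open genes were Sval1 (0.247 in replicate 1 and 0.147 in replicate 2), the olfactory receptor gene Olfr209 (0.170 and 0.236), the fatty acid transporter gene Cd36 (0.219 and 0.188), Crb1 (0.184 and 0.277) and Nxf7 (0.219 and 0.245). Over the 314 genes the mean of both replicates had a median of 0.866, with quartiles of 0.564 and 1.27.

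Member peaks had lower values than other promoter peaks and values like those of distal peaks. Other promoter peaks are shared peaks within 1000 bp of a start site of coding genes that are not CpG-poor, and distal peaks are shared peaks farther from every coding start site. The median was 0.810 for members, 1.49 for other promoters and 0.707 for distal peaks in replicate 1. It was 0.840, 1.89 and 0.742 in replicate 2. The mean of the 2 medians was 0.825 ± 0.0213 for members, 1.69 ± 0.287 for other promoters and 0.725 ± 0.0246 for distal peaks (SD, n = 2 replicates). The gap between members and other promoters was larger than either spread between replicates. Of the members, 56 of 376 (14.9%) in replicate 1 and 41 of 372 (11.0%) in replicate 2 were at or above the median of other promoters.

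**Figure D3:**
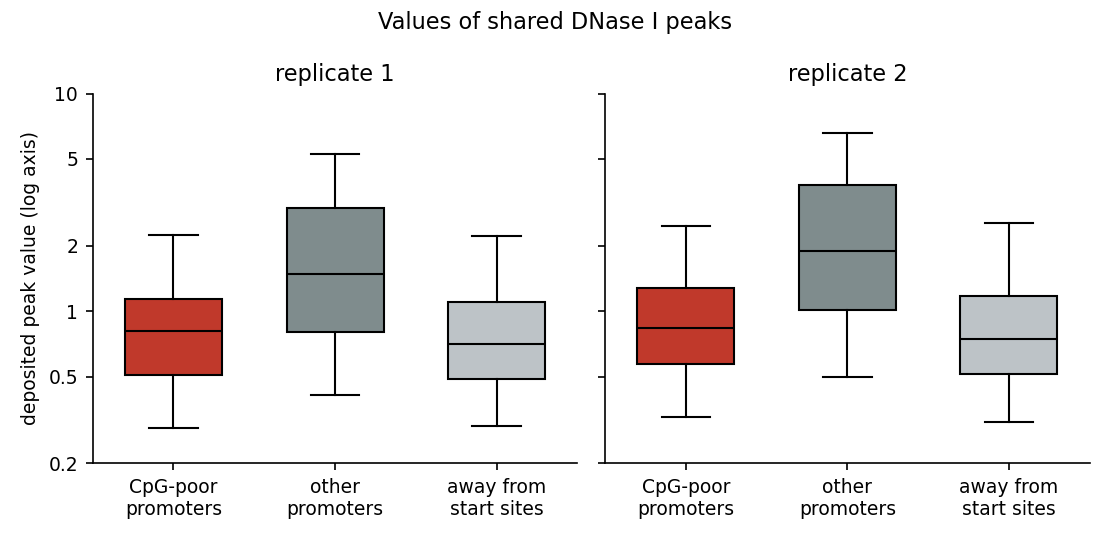
Deposited peak value (y axis, log scale) of shared peaks at CpG-poor promoters, at other promoters and away from start sites, in each replicate; boxes span the quartiles with the median as a line, and whiskers the 5th to 95th percentile. Boxes of CpG-poor promoters overlap those of distal peaks almost fully, with medians of 0.810 and 0.707 in replicate 1 and of 0.840 and 0.742 in replicate 2.

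The replicates ranked the members alike but differed in level by class. Over 376 overlapping pairs of member peaks the Spearman correlation of the values was 0.921, beside 0.975 over 21174 pairs of other promoter peaks and 0.902 over 53445 pairs of distal peaks. These are descriptions across sites that share 2 libraries. The median ratio of replicate 2 to replicate 1 was 1.10 for members, 1.27 for other promoters and 1.09 for distal peaks. Of the 314 genes, 204 (65.0%) were higher in replicate 2. Over pairs of peaks the share higher in replicate 2 was 66.5% for members, 91.2% for other promoters and 64.2% for distal peaks. For 309 of the 314 genes the highest peak was the same in both replicates, in that the peaks overlapped.

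Among open genes above the median, the ratio of replicate 1 to replicate 2 was highest at Camk1g, a calcium/calmodulin-dependent kinase gene (1.10 in replicate 1 and 0.750 in replicate 2), Slc25a18, a mitochondrial glutamate carrier gene (1.05 and 0.726), Krtap16-1 (1.51 and 1.04), Zbtb20, a zinc finger factor gene active in hippocampal development (1.09 and 0.791), and H2-Aa (1.66 and 1.21). It was lowest at the lipid droplet gene Plin4 (0.679 and 1.35), Gpr161 (0.771 and 1.38), Hsd17b14 (0.849 and 1.48), Rnase13 (0.933 and 1.49) and Prss57 (1.36 and 2.16). With 1 value per replicate at each gene, these differences have no error of their own.

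Over all values, a smaller share of CpG-poor promoter peaks recurred than of other promoter peaks. Of the peaks at CpG-poor genes, 376 of 611 (61.5%) in replicate 1 and 372 of 498 (74.7%) in replicate 2 overlapped a peak of the other replicate and so became members. The shares were 84.5% and 87.4% at other promoters and 59.9% and 75.4% at distal peaks. The peaks of a library were then divided at the quartiles of its values. In replicate 1 the 4 groups from lowest to highest recurred in 25.6%, 52.8%, 81.5% and 98.3% of CpG-poor peaks. The shares of other promoter peaks were 37.6%, 60.8%, 84.1% and 97.8%. In replicate 2 the 4 groups from lowest to highest recurred in 43.6%, 73.5%, 89.4% and 100% of CpG-poor peaks, against 44.6%, 65.5%, 87.6% and 98.4% of other promoter peaks. At like values CpG-poor peaks thus recurred less often than other promoter peaks below the upper quartile in replicate 1. In replicate 2 that difference was absent or turned round. Distal peaks recurred in 27.0%, 52.0%, 80.4% and 98.3% in replicate 1, near the shares of CpG-poor peaks. In replicate 2 the shares of distal peaks were 50.3%, 74.6%, 92.0% and 99.3%. The peaks that did not recur had a median value of 0.346 in replicate 1 and 0.387 in replicate 2. The authors' shorter, stricter peak list held 71.3% of members of replicate 1 and 58.9% of replicate 2, against 86.1% and 86.4% of other promoter peaks.

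Fewer than 1 in 3 members covered a start site. The share was 31.1% (interval 26.5% to 36.1%) in replicate 1 and 29.8% (25.2% to 34.8%) in replicate 2, against 54.0% and 55.0% of other promoter peaks. Upstream of the nearest start site lay 33.0% and 33.1% of members, and downstream of it 35.9% and 37.1%, against 16.7% and 16.1% of other promoter peaks upstream and 29.3% and 28.9% downstream. The values of members hardly depended on the side: in replicate 1 the median was 0.849 for those on the start site, 0.866 upstream and 0.742 downstream. At other promoters the same medians were 2.35, 1.23 and 0.841. In replicate 2 the medians of members were 0.840, 0.848 and 0.828, and those of other promoters 2.98, 1.50 and 1.08. The difference in value between members and other promoters was largest for peaks on a start site and smallest downstream of it.

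**Figure D4:**
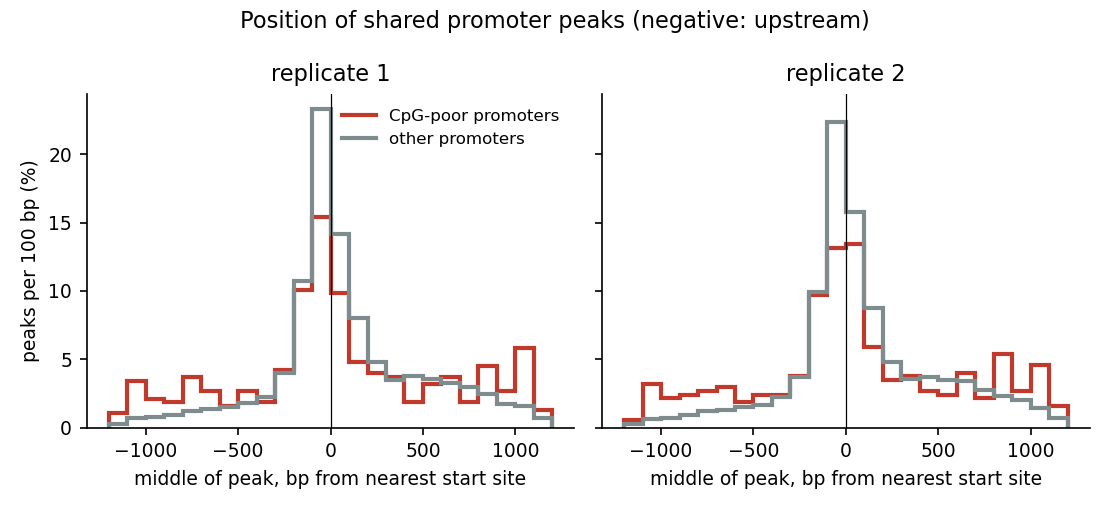
Share of shared promoter peaks per 100 bp (y axis) by the distance of the middle of the peak from the nearest start site of its gene (x axis, negative upstream), for CpG-poor promoters in red and other promoters in grey, in each replicate. Both classes peak at the start site; 15.4% of members and 23.3% of other promoter peaks of replicate 1 have their middle in the 100 bp before it, and a larger share of members lies beyond 750 bp on either side.

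At the level of genes, 92 of 314 had a start site covered in both replicates. In replicate 1 the highest peak of 210 genes covered no basic start site. Of these peaks, 15 covered a start site of a transcript of the same gene outside the basic set, 9 covered the RefSeq start site of the same gene, 1 that of another gene, and 188 none of these. The middle of the highest peak lay in an exon at 112 genes, in an intron at 98 and between genes at 104. The median value of the gene differed little between the 92 genes with a covered start site (0.901, quartiles 0.608 and 1.33) and the 222 others (0.848, quartiles 0.552 and 1.21).

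Several genes held more than 1 member peak. Of the 314 genes, 259 had a single member peak in each replicate and 55 had 2 or more in at least 1 replicate. Ak1, an adenylate kinase gene, had 4 in each, around its alternative start sites. Their values along the chromosome were 1.95, 1.04, 1.26 and 0.728 in replicate 1 and 1.92, 1.13, 1.62 and 0.832 in replicate 2. Hsd11b1, the gene for the enzyme that regenerates corticosterone, had 2.47, 0.799 and 0.643 in replicate 1 and 2.02, 0.726 and 0.571 in replicate 2, the strongest of them 49 bp downstream of an inner start site. Dbh, the gene of noradrenaline synthesis, had 0.940, 1.48 and 1.44 in replicate 1 and 0.791, 1.53 and 1.60 in replicate 2, and none covered the start site. Gm20661 and Mill2 also had 3 in each replicate. At Btbd17 a weaker peak (1.86 and 2.07) covered the start site, beside the strong one inside the gene.

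The sequence under member peaks was mostly CpG-poor too. The median CpG ratio of the peak itself was 0.210 in replicate 1 and 0.206 in replicate 2, near that of distal peaks (0.271 and 0.275) and unlike that of other promoter peaks (0.764 and 0.772). The rule limits the ratio around the start site, so for peaks on it this is no finding. Of the 314 highest peaks in replicate 1, 25 held no CpG, Aanat and H2-Eb1 among them, and 23 had a ratio of 0.6 or more. Of those 23 CpG-rich peaks, 1 covered a basic start site, that of Phf11d. They included 7 of the 20 strongest genes: Tmem270, Hcrt, Zscan2, Spata20, Tap2, Spocd1 and Sra1. The 23 genes had a median value of 1.27 (quartiles 0.667 and 2.41), against 0.837 (0.551 and 1.19) for the 188 genes whose peak ratio was under 0.25.

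Motifs were searched on both strands in the middle 200 bp of member peaks, and several stood at shares nearer to those of distal peaks than to those of other promoters. A GC box (GGGCGG), bound by Sp factors, stood in 12.2% of members, 48.4% of other promoter peaks and 9.22% of distal peaks in replicate 1, and in 13.4%, 48.9% and 9.24% in replicate 2. An ETS motif (CCGGAAG) stood in 1.86%, 9.66% and 1.58% in replicate 1. Both contain the CG that is scarce by rule around these start sites. A group of motifs without a CG was more frequent in members than at other promoters. The E-box CAGATG, bound by proneural factors such as those of the Neurod family, stood in 23.7% of members, 7.83% of other promoters and 25.5% of distal peaks in replicate 1, and in 23.7%, 7.86% and 25.2% in replicate 2. The E-box CAGCTG stood in 24.5%, 12.2% and 20.6% in replicate 1, the nuclear factor I half-site TTGGCA in 17.6%, 7.86% and 19.9%, and the AP-1 motif TGANTCA in 7.45%, 2.63% and 7.04%. A match is a description of the letters and does not show binding.

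The CTCF motif stood in 28 of 376 members (7.45%) of replicate 1 and 28 of 372 (7.53%) of replicate 2, against 0.91% and 0.92% of other promoters, and beside 7.46% and 7.28% of distal peaks. Of these 28, 4 in each replicate held the E-box CAGATG inside the CTCF match. The median value was 1.11 with a match and 0.774 without in replicate 1, and 1.47 with and 0.815 without in replicate 2. Aanat, Pcp4, Upk2, Tap2 and Hsd3b7 carried such a match, as did Chrm4, the M4 muscarinic acetylcholine receptor gene (1.44 and 1.66), and the complement genes C1ra and C1rb, which are close copies of each other. Most of these matches lay away from the start site: 4 were in the 117 members of replicate 1 that covered it, 12 in the 124 upstream and 12 in the 135 downstream.

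The other motifs searched were the CCAAT box, the TATA box TATAAA, the cyclic AMP response element TGACGTCA, the E-box CACGTG, the NRF1 motif GCATGCGC, the YY1 motif AAGATGG, the SOX motif ACAATGG, the octamer ATGCAAAT, the homeobox motif TAATTA, the PU.1 motif GAGGAAGT, the RFX motif GTTGCCATG, the EGR motif GCGTGGGCG, the KLF motif CCACACCC, the nuclear receptor half-site AGGTCA and the MEF2 motif. CCAAT stood in 21.0% of members, 24.1% of other promoters and 23.4% of distal peaks in replicate 1. The YY1 motif stood in 4.26%, 4.58% and 3.86%. The homeobox motif was less frequent in members than in distal peaks, at 1.60%, 0.90% and 3.81% in replicate 1 and 1.61%, 0.85% and 3.59% in replicate 2. NF-Y sites can overlap those of nuclear factor I, since TTGGCA and ATTGG share letters.

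A TATA box 20 to 40 bp before the start site was found at few open start sites of any CpG class. It was searched in the sense of the gene as TATAAA, or with TA or AG in place of the last 2 letters. It preceded 5 of 132 CpG-poor start sites that a peak covered in both replicates (3.79%, interval 1.24% to 8.62%) and 660 of the 8412 others (7.85%, interval 7.28% to 8.44%). The intervals overlapped. At genes with a ratio between 0.25 and 0.6 the shares were 1.02% of covered (interval 0.684% to 1.46%) and 3.84% of other start sites. At genes with a ratio of 0.6 or more they were 1.10% (interval 0.931% to 1.29%) and 1.35%. The share of covered start sites was thus highest in the CpG-poor class, with intervals that overlapped. The 5 genes were Btbd17, Adamtsl2 (1.14 in replicate 1 and 1.52 in replicate 2), the keratin gene Krt77 (0.870 and 0.856), the thyroid hormone transporter gene Slco1c1 (0.396 and 0.579) and a further keratin gene, Krt9. A CCAAT box preceded 18 of the 132 covered start sites (13.6%) and 15.1% of the others. The strongest of these genes were Btbd17, H2-Eb1, Nrn1l, which encodes a relative of neuritin (1.54 and 1.49), and H2-Aa.

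Footprints were frequent in member peaks. At least 1 lay inside 89.6% of members (interval 86.1% to 92.5%) in replicate 1 and 83.1% (78.9% to 86.7%) in replicate 2, against 85.5% and 86.1% of other promoter peaks. The chance of a footprint depends on the cuts in a peak. Between the lower quartile and the median of the values of replicate 1, and between the median and the upper quartile, 84.2% and 95.6% of members held a footprint, against 61.9% and 71.6% of other promoter peaks and 79.4% and 91.7% of distal peaks. In replicate 2 these shares were 77.3% and 94.1% of members, 62.4% and 73.1% of other promoter peaks, and 76.7% and 92.1% of distal peaks. Below the lower quartile the replicates differed in order, with 54.3% of members and 41.9% of other promoter peaks in replicate 1, but 43.1% and 46.4% in replicate 2. Members held 2.60 footprints on average in replicate 1 and 2.17 in replicate 2, against 3.90 and 4.06 in other promoter peaks.

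Recurrence of single footprints was counted by a stricter overlap than that of peaks, so the shares cannot be set side by side. Of the 978 footprints in members of replicate 1, 323 (33.0%) had at least 0.5 of their length covered by a footprint of replicate 2, and of the 807 in replicate 2, 341 (42.3%) by one of replicate 1. At other promoters the shares were 46.7% and 45.3%, and in distal peaks 33.2% and 38.9%. The share of members was near that of distal peaks in replicate 1. In replicate 2 it lay between those of distal and other promoter peaks. The genes with the most footprints over both replicates were Gm20661 (12 and 12), Ltb4r2 (10 and 11), Dbh (13 and 8), Ak1 (10 and 9) and Rnf225 (11 and 8).

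By cell type, CpG-poor genes of astrocytes and glutamatergic neurons were open more often than the 5.77% of all CpG-poor genes. These lists of known marker genes are short, so the counts are given as they are. Of 8 CpG-poor astrocyte genes, 7 were open: the glycolytic enzyme gene Aldoc (1.24 in replicate 1 and 1.62 in replicate 2), the angiotensinogen gene Agt (0.728 and 1.13), the calcium-binding protein gene S100b (0.877 and 0.889), the membrane protein gene Mlc1 (0.679 and 0.611), Acsbg1, Slco1c1 and Aldh1a1. The eighth, Itih3, had peaks of 0.686 and 0.693 that did not meet the rule. All 4 CpG-poor glutamatergic and pyramidal genes were open. They were Pcp4, Neurod6, a transcription factor gene of pyramidal neurons (1.73 and 1.76), Rgs14, a signalling regulator of area CA2 (0.962 and 0.750), and Spink8 (0.474 and 0.554). The median over the open genes was 0.645 for astrocytes and 1.30 for glutamatergic neurons, against 0.866 for all open CpG-poor genes.

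Microglial genes were the longest CpG-poor list, and most had no peak. Of 34 CpG-poor genes of microglia and macrophages, 5 were open, or 14.7% beside 5.77% of all CpG-poor genes, and 24 had a peak in neither replicate, Aif1 and Trem2 among them. The open ones were C1qc, a subunit of complement component C1q (1.38 in replicate 1 and 1.74 in replicate 2), the lysosomal glycoprotein gene Cd68 (0.849 and 1.13), the CSF1 receptor gene Csf1r (0.834 and 0.840), the chemokine gene Ccl2 (0.721 and 0.832) and Cd33. Of 9 oligodendrocyte and myelin genes only Gpr17, a receptor gene of differentiating oligodendrocytes, was open (0.530 and 0.701), while Mog had a peak in neither replicate. Of 10 endothelial and mural genes only Slco1c1, which is also on the astrocyte list, was open, and Cdh5 and Ly6a had no peak. Among meningeal fibroblast genes Islr (1.03 and 1.00) and the prostaglandin D synthase gene Ptgds (0.707 and 0.807) were open, 2 of 8, and Col3a1 and Col6a1 had no peak. Of 6 choroid plexus and ependymal genes Sostdc1 was open (0.573 and 0.554), while Folr1 and Tmem72 had no peak. The share of each of these lists was above 5.77%, but all but the microglial one rest on 1 or 2 open genes.

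Lists for blood cells, skin and gut, germline and liver were below the 5.77% of all CpG-poor genes. Those for striated muscle (13.3%), interferon response (9.09%) and lens, retina and inner ear (9.09%) were above it, on 1 or 2 open genes each. None was open among 22 lymphocyte, 22 granulocyte and mast cell, 19 erythroid and platelet, 16 skin and gut and 11 germline genes. Of 22 liver genes only Tdo2 was open (0.559 and 0.457), a tryptophan-degrading enzyme gene that is also on the dentate granule cell list, while Apoa1 and Apoa2 had no peak. Of 15 striated muscle genes Myh7, a myosin heavy chain (1.17 and 1.35), and the troponin gene Tnni2 (1.02 and 0.840) were open, and Actc1 and Ckm had no peak. Of 11 interferon-responsive genes Xaf1 was open (0.771 and 1.04), and of 11 genes of lens, retina and inner ear Otof (1.10 and 1.00). The neuropeptide, dentate granule cell and interneuron lists were also above it, at 33.3%, 33.3% and 50%, on 1 or 2 open genes each. Of 6 neuropeptide and receptor genes Hcrt and Grpr (0.530 and 0.514) were open, and Tac2 and Avp had no peak. Of 3 dentate granule cell genes Tdo2 was open, Il16 had no peak and Lct had a peak in replicate 2 only (0.522). Of 2 interneuron genes, the serotonin receptor gene Htr3a was open (0.884 and 1.21) and Chrna2 had no peak. The pan-neuronal, activity-induced and progenitor lists held no CpG-poor gene.

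**Figure D5:**
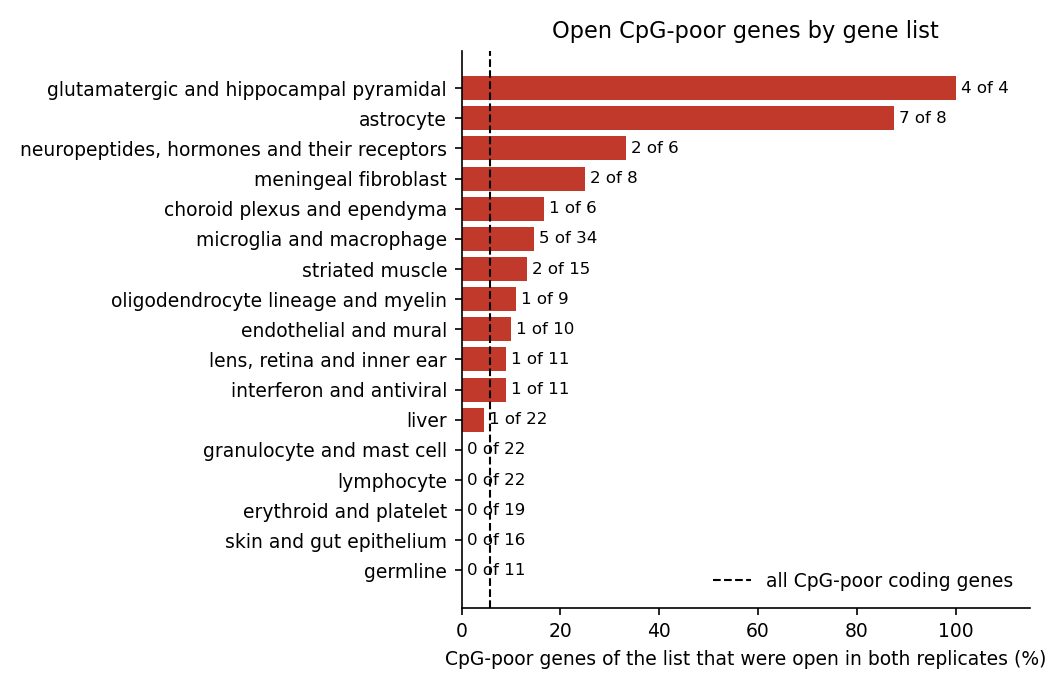
Share of the CpG-poor genes of each list that were open in both replicates (x axis, percent; lists with at least 4 such genes), with the numbers of genes beside the bars; the dashed line is the share of all CpG-poor coding genes, 5.77%. Glutamatergic and astrocyte genes reach 4 of 4 and 7 of 8, microglial genes 5 of 34, and the last 5 lists 0.

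Gene families defined by symbol also differed. Chemosensory receptors, the olfactory, vomeronasal and taste receptor genes, made up 1381 of the 5441 CpG-poor genes. Of them 17 were open, 1.23% (interval 0.719% to 1.96%), with the highest values at Olfr419 (0.877 in replicate 1 and 0.693 in replicate 2) and Olfr317 (0.665 and 0.848). Without chemosensory receptors 297 of 4060 CpG-poor genes were open, or 7.32%. The other G protein-coupled receptors had 13 of 70 open, 18.6% (interval 10.3% to 29.7%). Highest among these were Chrm1, the M1 muscarinic acetylcholine receptor gene that is abundant in hippocampal pyramidal neurons (2.01 and 2.18), and the melanocortin receptor gene Mc1r (1.68 and 2.09). Ion channel genes had 6 of 31 open, with Trpm5 (0.948 and 1.48) and Trpm8 (1.01 and 0.864) first.

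Among other families, the intervals of most took in the share of all CpG-poor genes. ABC transporters had 1 of 4 open (Abca8a, 0.396 in replicate 1 and 0.383 in replicate 2) and cadherins 2 of 12. Cytochrome P450 genes had 5 of 72 open (6.94%, interval 2.29% to 15.5%), with Cyp4f13 and Cyp1a1 (1.93 in replicate 1 and 1.96 in replicate 2) highest. Lipocalins, secretoglobins and their relatives had 6 of 95, with Scgb1c1 and Bpifb4 (1.07 and 1.07). Serpins had 4 of 46, with Serpina3n (0.912 and 1.08) and Serpinb1b (0.792 and 0.571). Keratins and keratin-associated proteins had 4 of 59, with Krtap16-1 and Krt77. Solute carriers had 5 of 61, with Slc4a10, a bicarbonate transporter gene of neurons (1.39 and 1.55), and the peptide transporter gene Slc15a2 (0.940 and 1.07). Chemokines, interleukins and their receptors had 6 of 78, with Il12b (1.03 and 1.52) and Tnfsf13. None of 56 defensin genes was open (interval 0 to 6.38%), and none of 49 prolactin and pregnancy-specific glycoprotein genes (interval 0 to 7.25%). Gene models with no assigned name had 32 of 1127 open (2.84%, interval 1.95% to 3.98%), below the share of all CpG-poor genes.

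Open CpG-poor genes stood in neighbourhoods with more distal peaks than CpG-poor genes without a peak. Within 20000 bp of the first start site, 218 of 314 open genes (69.4%) had at least 1 distal shared peak in replicate 1 and 220 (70.1%) in replicate 2. Of the 4884 CpG-poor genes with a peak in neither replicate, 31.7% had one in each replicate, or 40.7% when chemosensory receptors were left out. Over all coding genes the shares were 53.0% and 53.3%. The mean number of such peaks was 1.46 at open genes, 0.575 at CpG-poor genes without a peak and 1.07 over all coding genes in replicate 1. The median distance to the nearest start site of another coding gene was 17030 bp. Of the open genes, 16 had a CpG-rich start site of another gene within 5000 bp of their highest peak. In a separate count, the median distance to a CpG-rich start site was 54003.5 bp for open genes and 180940 bp for other CpG-poor genes. Such a site lay within 5000 bp of 17 of 314 open genes (5.41%) and 116 of 5127 others (2.26%). Within 2000 bp the order was reversed, with 1 open gene (0.318%) and 36 others (0.702%). The rule leaves out peaks within 1000 bp of another coding gene, which limits the count of open genes at such short distances. The reversal is therefore no finding. Whether the distance to CpG-rich start sites bears on the number of distal peaks was not tested.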

How the data were processed

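DNase-seq was measured in 2 replicates of 1 group. Per the deposited file descriptions, peaks and footprints of each replicate came from a single filtered mm10 alignment; no aligner or peak caller is named in the sources used here. Each peak carries a signal value, deposited with no unit named, that is used to describe and rank peaks. All values of a library were multiples of 1 step, 0.00707 in replicate 1 and 0.00815 in replicate 2, with no scaling stated, so depth is unknown. Deposited p-value columns hold false discovery rates. The rates given next were deposited for stretches along the genome, apart from the peaks. In replicate 1 the lowest rate under a peak was below 0.001 for 77.4% of members, 88.0% of other promoter peaks and 70.0% of distal peaks. In replicate 2 these shares were 64.0%, 88.3% and 58.4%.

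From these files, members were found as described, from GENCODE M21, with the longer peak list of each replicate. Footprints count when wholly inside a peak. Medians, shares and exact (Clopper-Pearson) intervals were computed with Python 3.11.15, numpy 2.4.6, pandas 2.3.3 and scipy 1.17.1, after tests on simulated data. Named genes were the 20 highest, 5 lowest, 5 largest and smallest replicate ratios, 5 with most peaks and footprints, the highest of each list, family and core motif, and 3 on either side of the CpG limit. Chrm4, C1ra, C1rb, Krt9, Phf11d and the runs of neighbouring genes were chosen after their values were seen. The members and lists were chosen with earlier results of these data known. Reads of either parental allele were not separated, and the printed reference is that of C57BL/6.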

Additional observations from a re-analysis of the deposited data

How the results depend on the processing

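The count of 314 open genes was 185 with a CpG limit of 0.20, 487 with 0.30, 163 with the shorter peak lists and 186 with the peaks of each list at or above its median value; all 163 and all 186 were among the 314. Windows of 500 and 2000 bp, 250 bp for the CpG ratio, reciprocal overlap of 50% and start sites of all transcripts gave 221 to 438. The mean of the 2 median member values, 0.825, became 0.767 with a CpG limit of 0.20, 0.772 within 500 bp, 0.801 with all transcripts, 0.921 with reciprocal overlap, 1.12 with the shorter lists and 1.14 with the peaks above the median. The share of members over a start site, 30.5%, became 27.3% and 35.1% with CpG limits of 0.20 and 0.30, 25.9% with the narrower CpG window, 45.7% within 500 bp, 20.8% within 2000 bp, 26.1% with the shorter lists, 27.8% with all transcripts and 33.2% with the peaks above the median. The share with a footprint, 86.3%, became 93.4% with the shorter lists, 91.7% with reciprocal overlap and 96.9% with the peaks above the median. Without replicate 1 or without replicate 2, with no sharing asked for, open genes numbered 387 to 464, the value was 0.552 to 0.701, the share over a start site 27.2% to 27.7% and the share with a footprint 73.3% to 75.1%. The cause of these shifts was not tested. No paired analysis was possible because there is 1 group. Unknown depth limits all shares: a start site without a peak was not detected as open, which does not show that it was closed.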

Other observations

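Some open CpG-poor genes were neighbours. With a gap of at most 50000 bp between gene bodies, 39 of the 314 genes (12.4%) fell into 17 runs of 2 to 4 genes. No background share was computed for such runs, so the count is a description. The longest run, on chromosome 6, held the complement genes C1rl (1.29 in replicate 1 and 1.23 in replicate 2), C1ra (1.05 and 1.46), C1s1 (0.636 and 0.342) and C1rb (1.18 and 1.47), which encode proteases that start the classical complement cascade or a relative of them. C1ra and C1rb are close copies, so their values are uncertain where a read matches both. On chromosome 17 the class II genes H2-Aa and H2-Eb1 formed a run, as did Cyp4f14 (0.601 and 0.375) and Cyp4f13 (3.89 and 3.99), a pair of related genes with very different values. On chromosome 1 Lamb3 (1.01 and 1.03), Hsd11b1 and Camk1g stood in a row, and on chromosome 7 Fxyd1, a regulator of the sodium pump (0.919 and 1.21), stood beside Lgi4 (2.26 and 3.16).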
